A study of Chlorella sp. HS2 with 12 samples.

Results

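Entry into stationary phase in freshwater was followed in Chlorella sp. HS2, a unicellular green alga, by setting 3 stationary libraries taken on day 6 after inoculation against 3 exponential libraries taken on day 4. Genes were kept where they held 15 or more counts summed over the 6 freshwater libraries and again over the 6 marine libraries. In all, 23351 of 57640 assembled genes were kept and tested, and 4819 of them carried a product name from the best protein hit. Both freshwater groups were autotrophic cultures of the same strain in freshwater inorganic medium without added sea salt, grown in 1-L cylindrical photobioreactors with 5% CO2 under light and temperature that the labels call optimal without giving values. The whole series holds 12 poly(A)-selected libraries. Its other 6, 3 of each phase, came from marine medium with 3% (w/v) sea salt and enter here only where the phase change in freshwater is set against that in salt. The series describes the 3 samples of a group as biological replicates. The p-values weigh the difference between groups against the spread between such samples, as estimated with information shared across genes. Day and phase go together in the design, so culture age and growth phase cannot be told apart. No genomic positions are given, since reads were assembled de novo and no genome was used.

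A batch culture of algae leaves exponential growth when light per cell, a nutrient or another resource runs short. Light-harvesting antennas, built from chlorophyll a/b-binding proteins, feed energy to photosystem I and photosystem II, whose electron transport supplies ATP and NADPH to the Calvin cycle. Green algae short of nutrients are known to lower their investment in this machinery, to recycle proteins through the proteasome and vacuole, and to store carbon as starch or oil.

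Library totals ran from 9378066 to 11280635 estimated counts. Kept genes held 95.6% to 98.0% of counts in the exponential and 91.1% to 95.3% in the stationary libraries. Levels are given as CPM, TMM-scaled counts per 1000000 counts, as the 3 libraries of a group in the order of their replicate numbers or as mean ± SD of n = 3. Log2 fold changes are stationary minus exponential on the log2 CPM scale, with an approximate standard error. It was worked back from the test, as the size of the fold change over the square root of the F statistic. Genes for antennas, photosystems and Rubisco, markers of a green alga, were present at up to 58775 CPM. Markers of other organisms are listed next, but their levels cannot show whether the freshwater cultures held such organisms. Poly(A) selection leaves out most bacterial RNA, and the rule drops genes found in freshwater alone. The kept gene of 17 matched to bacterial markers stayed between 0 and 1.47 CPM. The 6 kept of 38 genes matched to animal markers, such as immunoglobulin kappa (29.4 CPM in exponential replicate 2 and 0 elsewhere) and keratin 8, summed to 4.99, 32.1 and 9.33 CPM in the exponential and 0, 0.902 and 4.12 CPM in the stationary libraries. Some kept genes in the product lists also had counts in 1 or 2 freshwater libraries only, at higher levels. Examples, chosen after their values were seen, are DDX39B (DN27849_c0_g1), at 151 and 207 CPM in exponential replicates 2 and 3, and a proline- and glutamine-rich splicing factor (DN51123_c0_g1). The latter stood at 134 and 117 CPM in stationary replicates 2 and 3. The origin of such genes was not tested. Both genes matched to fungal markers were named chitin synthase 2 and summed to 229, 229 and 206 CPM in the exponential and 97, 83.5 and 81.6 CPM in the stationary libraries. Genes with 15 or more counts in freshwater but fewer in salt were left out by the rule. They were 16677 in number and held 2.21%, 1.98% and 4.39% of counts in the exponential and 8.82%, 7.46% and 4.61% in the stationary libraries. Among their named best hits, 18.1% were human proteins and 14.3% were from Arabidopsis thaliana, against 11.6% and 38.3% among kept genes. Hits to the amoeba Dictyostelium discoideum made up 7.27% and 3.18%. Whether such genes came from another organism in the freshwater cultures was not tested. A kept gene named after ART2 (DN290_c2_g4), in yeast a reading frame antisense to ribosomal RNA, stood at 4155, 5521 and 4004 CPM in the exponential and 10811, 12119 and 9587 CPM in the stationary libraries; it was chosen after its values were seen. What part the left-out genes and such reads have in the results below was not tested.

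Of the 23351 genes tested, 1153 rose (4.94%) and 1138 fell (4.87%) between day 4 and day 6 at a Benjamini-Hochberg adjusted p under 0.05 in edgeR's quasi-likelihood test, together 9.81%. The median log2 fold change was 0.22 over all tested genes and -0.14 over the 4819 with a product name, of which 471 rose (9.77%) and 629 fell (13.1%). Products of photosynthesis, of organelle ribosomes and of the tricarboxylic acid cycle, glycolysis and fatty acid synthesis held more genes that fell than rose, while those of starch breakdown, phosphate and sulfur metabolism, the proteasome and vacuolar proteolysis held more genes that rose than fell. Scaling set how the calls split: by library totals alone 1908 genes rose and 801 fell, and scaled to the authors' own group means 1646 rose and 871 fell, all fold changes then being 0.21 higher on the log2 scale. Counts also dropped when 1 library was left out, to 693 higher and 668 lower without exponential replicate 2, 517 and 630 without stationary replicate 1, 555 and 718 without stationary replicate 2, and 423 and 612 without stationary replicate 3.

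**Figure D1:**
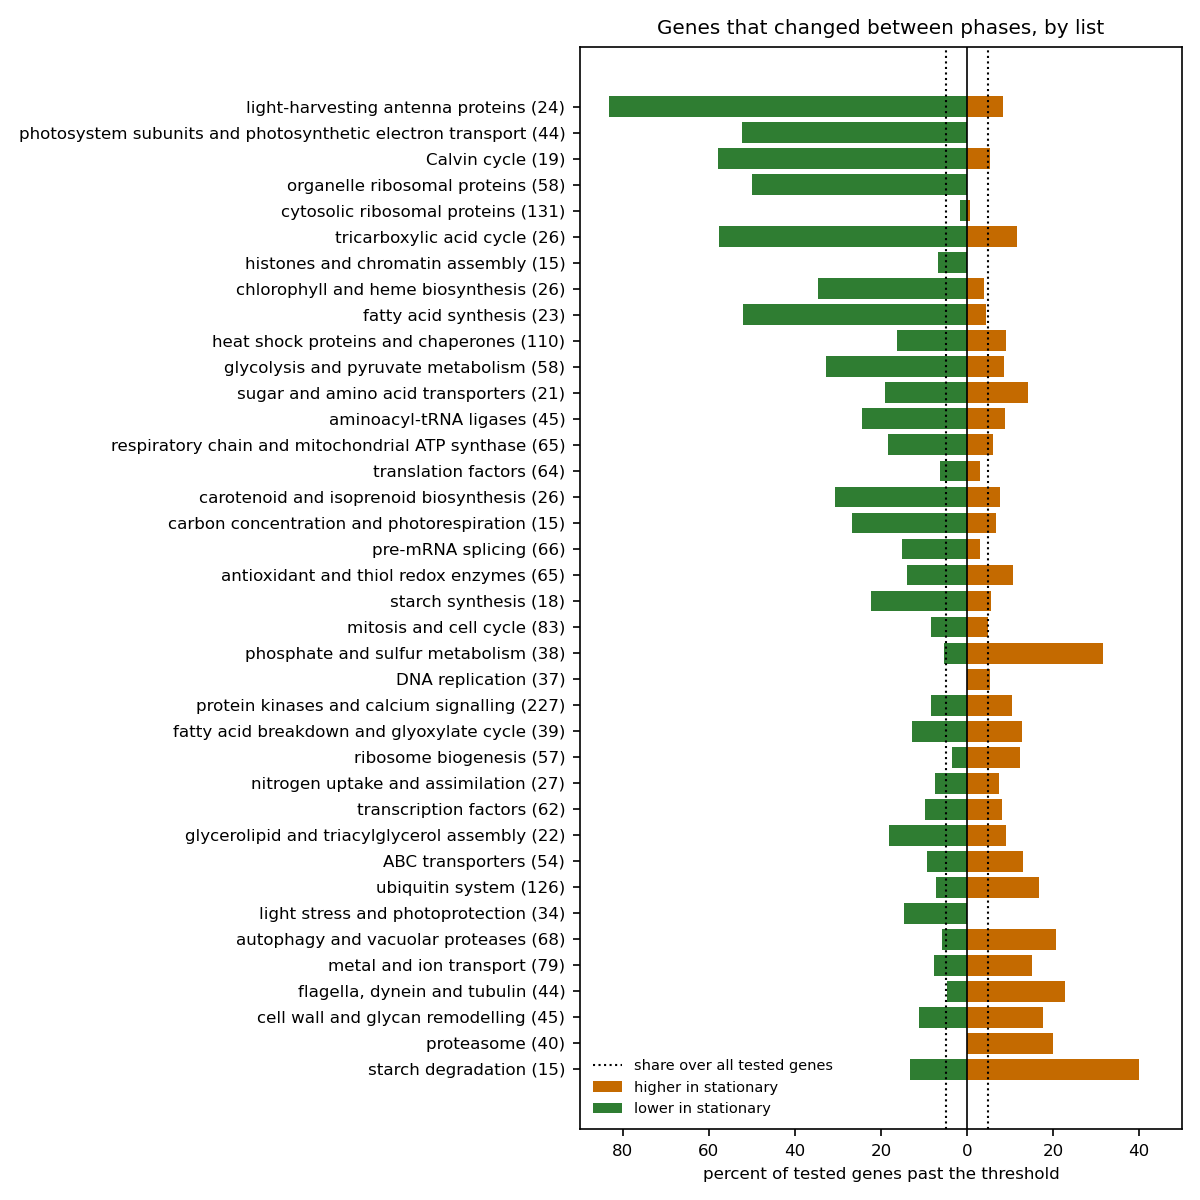
Share of tested genes in each product list that fell (green, to the left) or rose (orange, to the right) from exponential to stationary phase in freshwater, in percent, with the number of tested genes in brackets; lists with 15 or more tested genes, ordered by median change, and dotted lines at the share over all tested genes. Antenna, photosystem, Calvin cycle, tricarboxylic acid cycle, fatty acid synthesis and organelle ribosome lists reach furthest to the left, and starch degradation and phosphate and sulfur metabolism furthest to the right. Lists hold only genes with a product name, of which 9.77% rose and 13.1% fell.

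Chlorophyll a/b-binding antenna proteins had the lowest median change of the 43 product lists: 20 of 24 tested genes (30 matched) fell, 2 rose and 2 were not called, with a median log2 fold change of -5.44. Their summed level was 107581, 93221 and 105045 CPM in the exponential and 2613, 4674 and 4456 CPM in the stationary libraries. It was thus 26 times as high on day 4 as on day 6. All 3 exponential sums lay far above all 3 stationary ones. In bulk RNA, fewer cells of a kind and less RNA per cell cannot be told apart. The antenna gene with the highest CPM, chlorophyll a-b binding protein 3 (DN2252_c0_g2), stood at 57995, 49089.7 and 58775 CPM in the exponential and 108, 51.2 and 142 CPM in the stationary libraries. Each stationary library was far below each exponential one (log2 fold change -9.10 ± 0.68, adjusted p = 0.00133). Chlorophyll a-b binding protein 215 (DN10362_c0_g1) gave 18242, 14707 and 16855 CPM in the exponential and 15.2, 18.2 and 40.2 CPM in the stationary libraries. Again the groups lay far apart (log2 fold change -9.40 ± 0.60, adjusted p = 0.001). Antennas of both photosystems fell. CP26 (DN2947_c0_g1), a minor antenna of photosystem II, went from 2716 ± 253 to 27 ± 11.9 CPM (log2 fold change -6.65 ± 0.40, adjusted p = 0.000993). Chlorophyll a-b binding proteins 6A (DN1819_c0_g1) and 4 (DN1819_c0_g6), named after photosystem I antennas, fell from 2029 ± 132 to 26.8 ± 5.55 CPM and from 1195 ± 92.1 to 27.5 ± 3.61 CPM, with log2 fold changes of -6.24 ± 0.23 and -5.44 ± 0.17 (adjusted p = 0.000412 for each).

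Other antenna genes among the 10 lowest fold changes were DN546_c0_g2 (-8.96), DN1819_c0_g2 (-8.70), DN546_c0_g10 (-7.77), DN2252_c0_g4 (-7.64) and DN10362_c0_g2 (-7.31). A pair of antenna genes went the other way. One named after type I chlorophyll a-b binding protein of light-harvesting complex II (DN2252_c0_g1) stood at 1.44, 2.07 and 1.23 CPM in the exponential and 1937, 3839.9 and 3394 CPM in the stationary libraries. It was near 0 in every exponential library and high in every stationary one (log2 fold change 10.91 ± 0.46, adjusted p = 0.000412). DN546_c0_g9, of the same name, rose from 0.111, 0.115 and 0.246 CPM to 90.3, 256 and 192 CPM (log2 fold change 10.06 ± 0.62, adjusted p = 0.000993); its exponential levels rest on very few counts, so that the fitted fold depends on the prior count. Each shares an assembly component, a group of assembled sequences that overlap, with genes that fell, and the counting may have split reads between them. Some components also hold genes of other product names, so that a component value below need not describe the named gene alone. Summed over the component, DN2252_c0 had a log2 fold change of -4.14 and DN546_c0 one of -3.40, both below 0. In marine medium DN2252_c0_g1 stood at 2.87 ± 0.954 CPM in exponential and 1.39 ± 1.11 CPM in stationary phase, so that of the 4 groups it was high in freshwater stationary cultures alone. The 2 antenna genes that were not called, DN546_c0_g6 and DN12175_c0_g1, each had counts in 1 freshwater library only, 58.4 CPM in stationary replicate 1 and 3.87 CPM in stationary replicate 3.

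**Figure D2:**
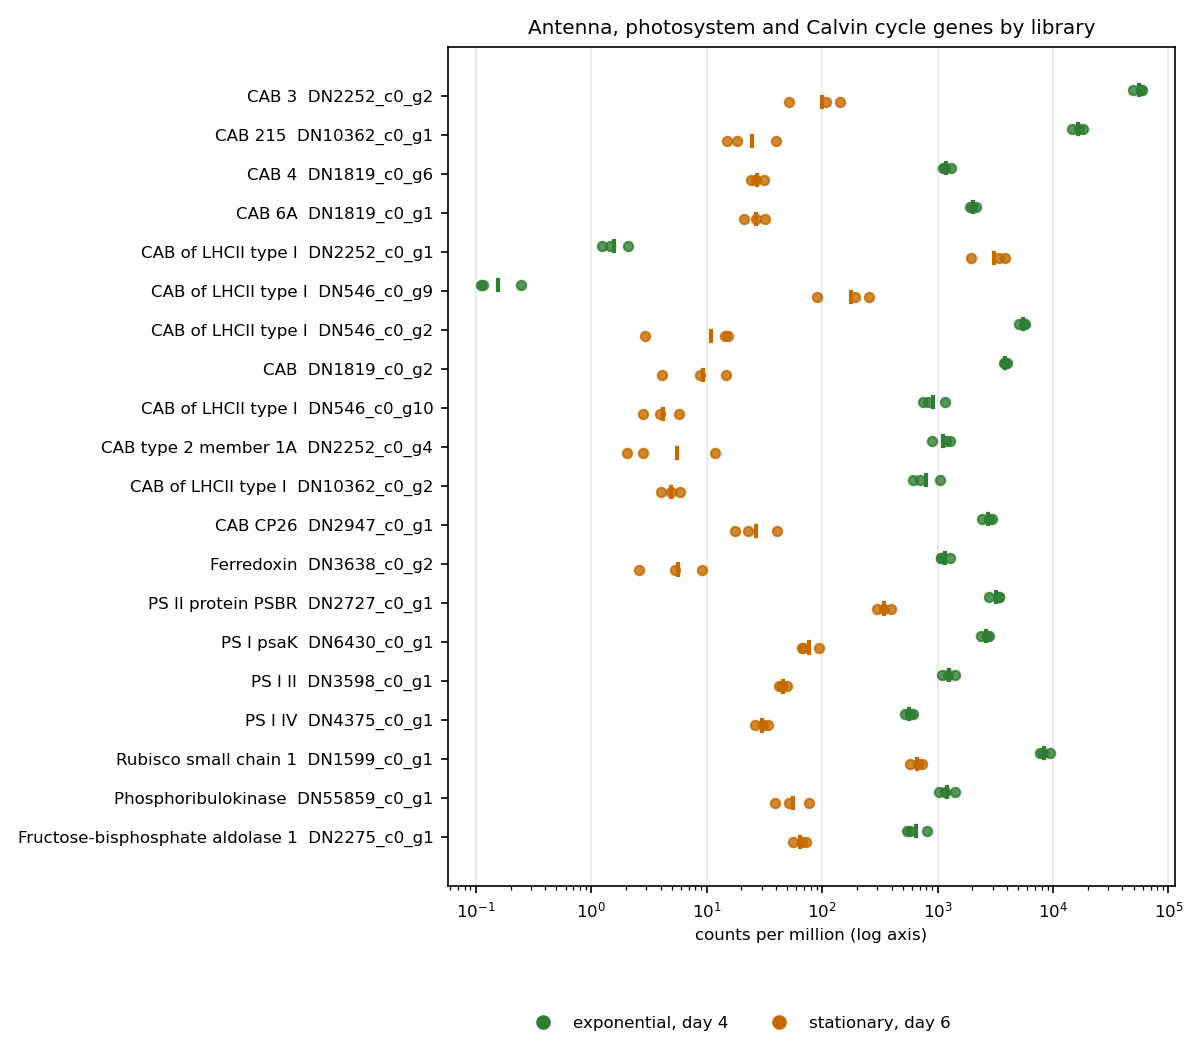
Levels of named antenna (CAB), ferredoxin, photosystem (PS) and Calvin cycle genes in CPM on a log axis, 1 point per freshwater library, with a vertical mark at each group's mean. Exponential libraries (green) lie above stationary libraries (orange) for each gene drawn except DN2252_c0_g1 and DN546_c0_g9, for which the order is turned.

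Photosystem subunits and electron carriers fell with the antennas: 23 of 44 tested genes (48 matched) fell, none rose in edgeR (0 at an unadjusted p under 0.05, 0 called in DESeq2), and the median log2 fold change was -2.18. PSBR (DN2727_c0_g1), a subunit of photosystem II near the oxygen-evolving complex, stood at 3409, 3429 and 2777 CPM in the exponential and 298, 342 and 395 CPM in the stationary libraries. The lowest exponential library lay well above the highest stationary one (log2 fold change -3.22 ± 0.20, adjusted p = 0.000993). In photosystem I, psaK (DN6430_c0_g1) fell from 2623 ± 207 to 76.4 ± 15 CPM (log2 fold change -5.10 ± 0.22, adjusted p = 0.000412). Subunit II (DN3598_c0_g1), where ferredoxin docks, fell from 1245 ± 168 to 45.7 ± 3.85 CPM (log2 fold change -4.77 ± 0.17, adjusted p = 0.000412), and subunit IV (DN4375_c0_g1) had a log2 fold change of -4.24. Ferredoxin itself (DN3638_c0_g2), the carrier that takes electrons from photosystem I, was among the 10 lowest, from 1150.2 ± 123 to 5.66 ± 3.26 CPM (log2 fold change -7.66 ± 0.53, adjusted p = 0.00111).

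In the Calvin cycle, which fixes CO2, 11 of 19 tested genes (35 matched) fell and 1 rose, with a median of -1.56. The Rubisco small subunit (DN1599_c0_g1) stood at 9334, 7715 and 8239 CPM in the exponential and 579, 673 and 729 CPM in the stationary libraries. All 3 stationary libraries were more than 10 times below the exponential ones (log2 fold change -3.67 ± 0.23, adjusted p = 0.000993). Phosphoribulokinase (DN55859_c0_g1), which remakes the CO2 acceptor, fell from 1202 ± 197 to 56.5 ± 19.5 CPM (log2 fold change -4.41 ± 0.31, adjusted p = 0.00116). Plastid fructose-bisphosphate aldolase 1 (DN2275_c0_g1) fell from 645 ± 150.1 to 64.9 ± 8.24 CPM (log2 fold change -3.31 ± 0.22, adjusted p = 0.00107). Genes of carbon concentration and photorespiration, the salvage of Rubisco's oxygenation product, moved less, with 4 of 15 tested genes (33 matched) lower, 1 higher and a median of -0.35. Glyoxylate/hydroxypyruvate reductase A (DN59_c0_g1) had a log2 fold change of -1.23 ± 0.12 and serine hydroxymethyltransferase 4 (DN3119_c0_g1) of -2.06 ± 0.23. The 1 rise in this list was lost in each fit that left out 1 library.

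Genes of pigment synthesis were called lower more than higher. Of 26 tested genes (55 matched) for chlorophyll and heme, 9 fell and 1 rose (median -0.89). Glutamyl-tRNA reductase 1 (DN296_c0_g2), the first committed enzyme of tetrapyrrole synthesis, stood at 419.9, 363 and 386 CPM in the exponential and 42.1, 67.1 and 51.1 CPM in the stationary libraries. The groups were well separated (log2 fold change -2.87 ± 0.20, adjusted p = 0.00112). Coproporphyrinogen oxidase (DN1300_c0_g1) fell from 269 ± 45.5 to 83.2 ± 23.8 CPM (log2 fold change -1.69 ± 0.25, adjusted p = 0.0113); with 1 library left out its adjusted p ran from 0.0259 to 0.054, the last without stationary replicate 1. The ChlD subunit of magnesium chelatase (DN458_c0_g2), at the branch to chlorophyll, had a log2 fold change of -3.86, against -0.88 for its component as a whole, and the reductase's component came to -1.75. The 1 rise was another ChlD gene (DN1764_c0_g4), chosen after its values were seen. It went from 0.554, 0.344 and 1.47 CPM to 24, 43.5 and 19.6 CPM (log2 fold change 5.18, adjusted p = 0.00725). A further ChlD gene (DN458_c0_g1) was not called (log2 fold change 0.45, adjusted p = 0.31). Of 26 tested genes (34 matched) for carotenoids and isoprenoids 8 fell and 2 rose (median -0.47); leaving out 1 library lowered this to as few as 1 higher (exponential replicate 1) and 3 lower (exponential replicate 2). Under the authors' scaling 3 of them fell and 3 rose. Deoxyxylulose-phosphate synthase (DN274_c0_g1), the entry to plastid isoprenoids, fell from 720.0 ± 96.9 to 326 ± 13.4 CPM (log2 fold change -1.14 ± 0.14, adjusted p = 0.00555). Carotene epsilon-monooxygenase (DN19_c0_g1), an enzyme of lutein synthesis, had a log2 fold change of -2.24. Zeta-carotene desaturase (DN9_c0_g2) had one of -1.70, a call not made for its component (-0.50). That component also held phytoene desaturase (DN9_c0_g1), which was not called (log2 fold change -0.35). Zeaxanthin epoxidase (DN1658_c0_g1), of the xanthophyll cycle, went from 633 ± 87.6 to 793 ± 27.4 CPM and did not pass the test (log2 fold change 0.32 ± 0.14, adjusted p = 0.261).

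Among genes of light stress and photoprotection 14.7% fell, beside 4.87% of all tested genes and 13.1% of those with a product name. Of 34 tested genes (48 matched), 5 fell, none rose in edgeR (6 at an unadjusted p under 0.05, 2 called in DESeq2) and 29 were not called, with a median of 0.16 beside 0.22 over all genes; 3 rose and 3 fell under the authors' scaling, and 2 fell without stationary replicate 3. The plastid FTSH protease (DN1636_c0_g1), a member of the family that clears damaged photosystem II proteins, stood at 2109, 3352 and 2379.8 CPM in the exponential and 566, 825 and 657 CPM in the stationary libraries. Every stationary library was below every exponential one (log2 fold change -1.94 ± 0.25, adjusted p = 0.00703); its adjusted p ran from 0.0172 to 0.0576 with 1 library left out, highest without stationary replicate 3. The mitochondrial FTSH 4 (DN448_c0_g3) had a log2 fold change of -1.13, or -0.70 over its component.

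Ribosomal proteins of plastids and mitochondria fell: 29 of 58 tested genes (140 matched) fell and none rose in edgeR (1 at an unadjusted p under 0.05, 0 called in DESeq2), with a median of -1.30. Their summed level was 10900.2, 8945 and 7972 CPM in the exponential and 3455, 3058 and 3581 CPM in the stationary libraries. The groups did not overlap, and the sum was 2.76 times as high in exponential phase. L10 (DN1238_c0_g1) stood at 1525, 1203 and 999.7 CPM in the exponential and 366, 354 and 387 CPM in the stationary libraries, so that each stationary library was below each exponential one (log2 fold change -1.75 ± 0.19, adjusted p = 0.00357). L3-1 (DN6489_c0_g2) fell from 1012 ± 161 to 135 ± 14.2 CPM (log2 fold change -2.90 ± 0.17, adjusted p = 0.000986) and S15 (DN10671_c0_g2) from 82.6 ± 11.7 to 20.5 ± 1.96 CPM. By contrast L27 (DN966_c0_g1) overlapped between the groups, at 563, 916 and 677 CPM in the exponential and 916, 763 and 896 CPM in the stationary libraries (log2 fold change 0.26 ± 0.21, adjusted p = 0.424). Cytosolic ribosomal proteins had a median almost as low, -1.16 over 131 tested genes (221 matched), but only 2 fell and 1 rose in edgeR, whereas DESeq2 called 32 lower; leaving out 1 library lowered this to as few as 0 lower (stationary replicate 1) in edgeR. Their sum was 145051, 133726 and 111715 CPM in the exponential and 97580.1, 107253 and 91667 CPM in the stationary libraries. The groups did not overlap, with exponential replicate 3 nearest to the stationary libraries. S25-3 (DN1882_c0_g1) and S21-2 (DN2666_c0_g1), the members with the highest CPM, went from 9851 ± 1784 to 6849 ± 548 CPM and from 10809 ± 2639.6 to 5711 ± 362 CPM, and neither passed the test (adjusted p = 0.297 and 0.112). L37 (DN182_c0_g1) fell (-0.89 ± 0.14, adjusted p = 0.0141), a call lost without any 1 of the 3 stationary replicates (adjusted p 0.0177 to 0.0712 with 1 library left out). The rise of S5-2 (DN1285_c0_g3) (1.19 ± 0.24, adjusted p = 0.0294) was lost in all 6 fits with 1 library left out (adjusted p 0.0629 to 0.103) and turned to -0.35 over its component.

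Elsewhere in translation, 4 of 64 tested genes (162 matched) for translation factors fell and 2 rose (median -0.48); leaving out 1 library lowered this to as few as 1 higher (exponential replicate 2). Elongation factor 1-alpha (DN794_c0_g3), which brings aminoacyl-tRNA to the ribosome, went from 18525 ± 2619 to 11769.9 ± 646 CPM without passing the test (log2 fold change -0.65 ± 0.29, adjusted p = 0.268), and elongation factor 2 (DN819_c0_g1) went from 2957 ± 383 to 1965 ± 52.3 CPM (log2 fold change -0.59 ± 0.17, adjusted p = 0.0946). Initiation factor 2 subunit alpha (DN2440_c0_g2) fell from 182 ± 11.7 to 54.2 ± 5.69 CPM (log2 fold change -1.75 ± 0.12, adjusted p = 0.00116). Elongation factor G-2 of mitochondria (DN1578_c0_g1) had a log2 fold change of -1.91. Among aminoacyl-tRNA ligases, 11 of 45 tested genes (118 matched) fell and 4 rose (median -0.52); leaving out 1 library lowered this to as few as 0 higher (stationary replicate 1) and 7 lower (exponential replicate 1). The calls named were for organelle enzymes. Leucine-tRNA ligase (DN1140_c0_g1) stood at 3513, 2716 and 3099.9 CPM in the exponential and 540.3, 554 and 604 CPM in the stationary libraries, far apart by group (log2 fold change -2.46 ± 0.17, adjusted p = 0.00112). Serine-tRNA ligase (DN1523_c0_g1) fell from 80.7 ± 7.42 to 17.6 ± 1.82 CPM. Threonine-tRNA ligase (DN445_c0_g1) went from 842 ± 142 to 598 ± 23.2 CPM and was not called (log2 fold change -0.49 ± 0.16, adjusted p = 0.128).

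**Figure D3:**
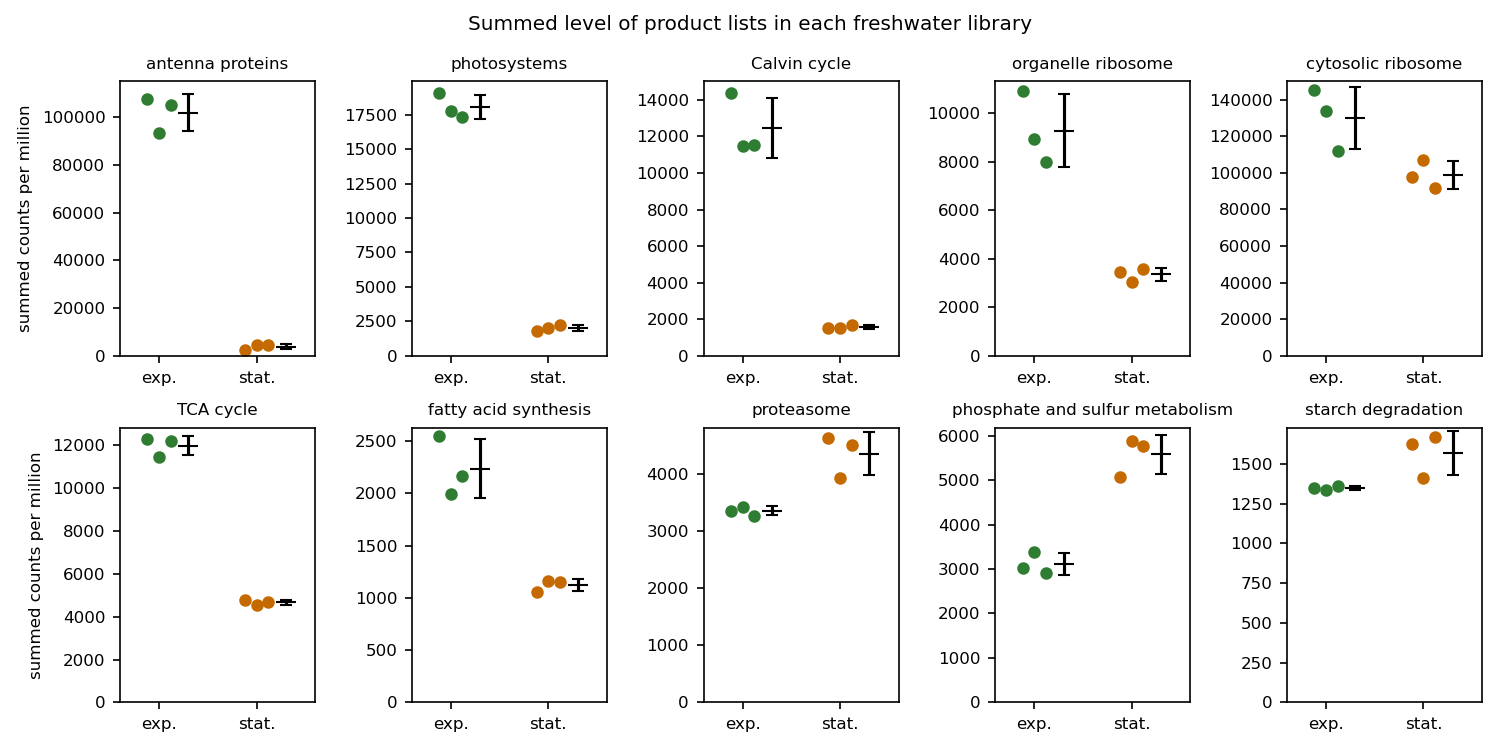
Summed CPM of the tested genes of 10 product lists in each freshwater library (points; exp., exponential, and stat., stationary), with the mean and SD of each group beside them; each panel has its own axis from 0. The antenna, photosystem, Calvin cycle, organelle ribosome and TCA cycle panels show groups far apart, while the cytosolic ribosome panel shows groups that nearly meet.

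In the list of the tricarboxylic acid cycle, which oxidises acetyl-CoA in mitochondria, 15 of 26 tested genes (78 matched) fell and 3 rose (median -1.16). Leaving out 1 library lowered this to as few as 1 higher (exponential replicate 1). The list also took in related enzymes outside the cycle, and the 3 rises were among these. One was a plastid pyruvate dehydrogenase component (DN1030_c0_g1, log2 fold change 1.94), counted in the glycolysis list too. The others were ATP-citrate synthase (DN1223_c0_g1, 1.01) and glyoxysomal malate dehydrogenase (DN1577_c0_g2, 0.64). These 3 were named after their values were seen. The list summed to 12271, 11460.1 and 12176 CPM in the exponential and 4795, 4566 and 4671 CPM in the stationary libraries, which kept the groups far apart. Citrate synthase (DN865_c0_g1), the entry enzyme, stood at 4666, 4577 and 4555 CPM in the exponential and 1991, 1452 and 1639 CPM in the stationary libraries. The exponential libraries were close to each other and all above the stationary ones (log2 fold change -1.44 ± 0.19, adjusted p = 0.00789). Aconitase (DN650_c1_g1) fell from 1782 ± 239 to 439 ± 36.9 CPM (log2 fold change -2.02 ± 0.16, adjusted p = 0.0015), mitochondrial malate dehydrogenase (DN1577_c0_g1) from 399 ± 44.5 to 104 ± 2.18 CPM and succinate dehydrogenase (DN3299_c0_g2) from 369 ± 70.3 to 58.2 ± 9.44 CPM. In the respiratory chain and ATP synthase, 12 of 65 tested genes (122 matched) fell and 4 rose (median -0.51); leaving out 1 library lowered this to as few as 1 higher (exponential replicate 2) and 6 lower (stationary replicate 3). Cytochrome c (DN4874_c0_g2) stood at 693, 472 and 631 CPM in the exponential and 87.9, 109 and 113 CPM in the stationary libraries, with no overlap (log2 fold change -2.54 ± 0.19, adjusted p = 0.00144). ATP synthase subunit O (DN1837_c0_g1) went from 1798 ± 227 to 1174 ± 103 CPM and was not called (log2 fold change -0.61 ± 0.16, adjusted p = 0.0712). Bypass enzymes pass electrons on without pumping protons. An external NAD(P)H-ubiquinone oxidoreductase B1 (DN993_c0_g1) stood at 18.1, 18.8 and 14.6 CPM in the exponential and 77.3, 77.9 and 67.2 CPM in the stationary libraries. All stationary libraries lay above all exponential ones (log2 fold change 2.11 ± 0.16, adjusted p = 0.00132), with 1.53 over its component. A further external B1 gene (DN678_c0_g1), chosen after its values were seen, was lower in each stationary library but not called. It went from 117, 124 and 208 CPM to 84.8, 82.9 and 75.8 CPM (log2 fold change -0.88, adjusted p = 0.0752). An internal one (DN937_c0_g1) fell from 27.7, 27.9 and 25.5 CPM to 13.2, 9.52 and 14.7 CPM (log2 fold change -1.11, adjusted p = 0.0318); the call was lost in all 6 fits with 1 library left out (adjusted p 0.0624 to 0.0993), and the gene was chosen after its values were seen. Alternative oxidase (DN728_c0_g1) rose from 605 ± 40.7 to 1112 ± 99.6 CPM (log2 fold change 0.88 ± 0.13, adjusted p = 0.012); the call was lost without exponential replicate 2 or stationary replicate 1 (adjusted p 0.0351 to 0.0557).

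Of 58 tested genes (147 matched) of glycolysis and pyruvate metabolism, 19 fell and 5 rose (median -0.56); leaving out 1 library lowered this to as few as 3 higher (exponential replicate 1) and 10 lower (stationary replicate 3). By library totals 12 fell. Plastid pyruvate kinase A (DN465_c0_g1) stood at 236, 224 and 241 CPM in the exponential and 78.2, 77 and 74.7 CPM in the stationary libraries. The groups were narrow and apart (log2 fold change -1.61 ± 0.10, adjusted p = 0.000986). Cytosolic triosephosphate isomerase (DN358_c0_g2) rose from 235 ± 57.5 to 949 ± 80.2 CPM (log2 fold change 2.01 ± 0.22, adjusted p = 0.00373). Phosphoenolpyruvate carboxykinase 1 (DN616_c0_g1), which feeds gluconeogenesis, went from 1955 ± 199 to 1215 ± 209 CPM without passing the test (log2 fold change -0.69 ± 0.19, adjusted p = 0.0799). Fatty acid breakdown and the glyoxylate cycle, which turns acetyl-CoA into precursors of sugar, had 5 genes higher and 5 lower of 39 tested genes (72 matched, median -0.01); leaving out 1 library lowered this to as few as 1 higher (exponential replicate 2) and 3 lower (exponential replicate 1). The enzymes particular to the glyoxylate cycle fell where they had counts in each library. Isocitrate lyase (DN176_c1_g1) stood at 1221, 1204 and 1255 CPM in the exponential and 558, 527 and 541 CPM in the stationary libraries, with the groups clear of each other (log2 fold change -1.18 ± 0.11, adjusted p = 0.00265), and malate synthase (DN1209_c0_g1) fell from 277 ± 14.7 to 96.6 ± 14.5 CPM (log2 fold change -1.52 ± 0.14, adjusted p = 0.0025). Peroxisomal acyl-CoA oxidase 2 (DN1766_c0_g1), of beta-oxidation, overlapped between groups (log2 fold change 0.24 ± 0.21, adjusted p = 0.466). The 5 rises included triacylglycerol lipase SDP1 (DN1206_c0_g1, log2 fold change 3.02, and DN2328_c0_g1, 1.07) and acyl-CoA oxidase 4 (DN1301_c0_g1, 1.24). Among the 5 falls were a probable enoyl-CoA hydratase (DN3400_c0_g1, -1.28) and a probable peroxisomal acyl-activating enzyme (DN3200_c0_g3, -2.94). These lipase, oxidase, hydratase and acyl-activating genes were chosen after their values were seen.

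In fatty acid synthesis, a process of the plastid with a smaller mitochondrial path, 12 of 23 tested genes (51 matched) fell and 1 rose (median -0.82); leaving out 1 library lowered this to as few as 6 lower (stationary replicate 3). Among the falls was the mitochondrial acyl carrier protein 2 (DN4208_c0_g1) (log2 fold change -1.25, adjusted p = 0.00539). The rise was very-long-chain 3-oxoacyl-CoA reductase 1 (DN493_c0_g1), an enzyme of chain elongation outside the plastid (log2 fold change 1.15, adjusted p = 0.0106). Both were chosen after their values were seen, and the rise was lost without stationary replicate 3 (adjusted p 0.0139 to 0.0623 with 1 library left out). A gene whose name the table shortens to 3-oxoacyl- (DN3474_c0_g1), in the list of chain-building enzymes, stood at 72.1, 64.8 and 67.5 CPM in the exponential and 7.82, 10.8 and 10.4 CPM in the stationary libraries. Stationary libraries were all far lower (log2 fold change -2.81 ± 0.18, adjusted p = 0.001). Enoyl-ACP reductase (DN7107_c0_g1), the last step of each elongation round, fell from 54.2 ± 15.7 to 9.74 ± 1.80 CPM (log2 fold change -2.48 ± 0.27, adjusted p = 0.00398). A gene whose shortened name is Stearoyl- (DN986_c0_g1) and omega-6 desaturase of the plastid (DN236_c0_g1), which introduces double bonds, had log2 fold changes of -1.38 and -0.82. Assembly of glycerolipids and triacylglycerol did not follow as a group, with 2 genes higher and 4 lower of 22 tested genes (40 matched, median 0.05); leaving out 1 library lowered this to as few as 0 higher (exponential replicate 2) and 0 lower (exponential replicate 2). Choline-phosphate cytidylyl transferase 1 (DN213_c0_g1), which regulates phosphatidylcholine synthesis, rose from 375 ± 17.6 to 555 ± 47.8 CPM (log2 fold change 0.57 ± 0.12, adjusted p = 0.032). TGD1 (DN5182_c0_g1), which imports lipid into the plastid, fell from 55.4 ± 4.75 to 30.2 ± 2.95 CPM (log2 fold change -0.87 ± 0.14, adjusted p = 0.015). Digalactosyldiacylglycerol synthase 1 (DN1784_c0_g1), a maker of thylakoid lipid, fell from 106 ± 1.72 to 69.8 ± 7.02 CPM (log2 fold change -0.61 ± 0.12, adjusted p = 0.0247). These 3 calls were not firm. Those for the phosphatidylcholine enzyme (adjusted p 0.0824 to 0.0922) and the synthase (0.0505 to 0.0835) were lost in all 6 fits with 1 library left out, that for TGD1 without exponential replicate 2, stationary replicate 1 or stationary replicate 3 (0.0259 to 0.0689), and by library totals 0 of the list fell. The delta-7 desaturase of monogalactosyldiacylglycerol (DN1737_c0_g1) overlapped between groups (log2 fold change -0.33 ± 0.22, adjusted p = 0.31).

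Starch degradation held the largest share of rises among lists of 15 or more tested genes: 6 of 15 tested genes (26 matched) rose and 2 fell, with a median of 0.61. Leaving out 1 library lowered this to as few as 3 higher (stationary replicate 3) and 1 lower (stationary replicate 2). Among the rises was a probable glucan 1,3-alpha-glucosidase (DN1897_c0_g1, log2 fold change 0.68), a name not particular to starch. Genes named beta-amylase 3 split: DN2166_c0_g1 fell from 208, 195 and 231 CPM to 132, 113 and 99.2 CPM (-0.88). At lower levels, DN3073_c0_g3 rose from 15.9, 16.5 and 17.9 CPM to 32.7, 35.6 and 34.4 CPM (1.03). These 3 were named after their values were seen. Plastid alpha-amylase 3 (DN2089_c0_g1), which cuts starch internally, stood at 65.7, 61.8 and 62.4 CPM in the exponential and 131, 122 and 125 CPM in the stationary libraries. The level in each stationary library was higher than in the exponential ones (log2 fold change 0.99 ± 0.10, adjusted p = 0.00271). Alpha-glucan water dikinase (DN219_c0_g3), which primes the granule surface for attack, rose from 365 ± 14.7 to 579 ± 82.4 CPM (log2 fold change 0.67 ± 0.14, adjusted p = 0.0338), a call kept without stationary replicate 2 and lost without each of the other 5 libraries (adjusted p 0.0376 to 0.111). An alpha-glucosidase (DN404_c0_g1) fell from 89.2 ± 6.27 to 25.6 ± 1.15 CPM (log2 fold change -1.80 ± 0.12, adjusted p = 0.00107), or -0.73 over its component, and an alpha-amylase (DN2872_c1_g1) was not called (log2 fold change -0.57 ± 0.19, adjusted p = 0.15). In starch synthesis 4 of 18 tested genes (19 matched) fell and 1 rose (median -0.29); leaving out 1 library lowered this to as few as 2 lower (exponential replicate 1). Branching enzyme 2-1 (DN21432_c0_g1) stood at 412, 391 and 389.7 CPM in the exponential and 192, 195 and 170.3 CPM in the stationary libraries, lower in all stationary libraries (log2 fold change -1.10 ± 0.11, adjusted p = 0.0027). Phosphoglucomutase-2 (DN3380_c0_g1) fell from 42 ± 5.61 to 6.15 ± 1.02 CPM (log2 fold change -2.77 ± 0.22, adjusted p = 0.00149). The small subunit of ADP-glucose pyrophosphorylase (DN86_c0_g1), the committed step, rose from 302 ± 23.7 to 429 ± 4.93 CPM (log2 fold change 0.51 ± 0.11, adjusted p = 0.0358), a call lost in all 6 fits with 1 library left out (adjusted p 0.075 to 0.128). The gene of the list with the highest CPM, phosphomannomutase/phosphoglucomutase (DN485_c0_g1), went from 1322 ± 96 to 1500.4 ± 53.6 CPM and was not called (log2 fold change 0.18 ± 0.13, adjusted p = 0.369).

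The oxidative pentose phosphate path makes NADPH from glucose 6-phosphate outside photosynthesis. Of 5 tested genes (9 matched), 2 rose and none fell in edgeR (1 at an unadjusted p under 0.05, 1 called in DESeq2), with a median of 0.46; leaving out 1 library lowered this to as few as 1 higher (exponential replicate 1). 6-phosphogluconolactonase 3 (DN1746_c1_g1) stood at 219.7, 197 and 191 CPM in the exponential and 343, 342 and 330.4 CPM in the stationary libraries. Each stationary library was above each exponential one (log2 fold change 0.74 ± 0.10, adjusted p = 0.00926). Glucose-6-phosphate dehydrogenase 2 (DN769_c0_g1), the entry enzyme, rose from 165 ± 13.8 to 311 ± 76.8 CPM (log2 fold change 0.92 ± 0.19, adjusted p = 0.035). That call was lost without any 1 library other than stationary replicate 2 (adjusted p 0.0465 to 0.12) and was not made for its component (0.50).

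Nitrogen uptake and assimilation had 2 genes higher and 2 lower of 27 tested genes (105 matched, median 0.01); leaving out 1 library lowered this to as few as 0 higher (stationary replicate 2) and 1 lower (exponential replicate 1). Glutamate dehydrogenase A (DN224_c1_g1), which links glutamate to the carbon cycle, stood at 133, 245 and 188 CPM in the exponential and 439.5, 814 and 643 CPM in the stationary libraries. Stationary libraries were all higher, with a wide spread (log2 fold change 1.74 ± 0.31, adjusted p = 0.0199). The NADP-specific glutamate dehydrogenase (DN2745_c0_g4) fell from 199 ± 58.5 to 21.6 ± 6.80 CPM (log2 fold change -3.20 ± 0.34, adjusted p = 0.00357), or -0.97 over its component. That component also held a proteasome subunit gene (DN2745_c0_g3, log2 fold change 0.71). N-carbamoylputrescine amidase (DN1720_c0_g1), of polyamine synthesis, rose from 39.8 ± 13 to 125 ± 27.7 CPM (log2 fold change 1.65 ± 0.29, adjusted p = 0.0187), or 1.09 over its component. That component also held peptide chain release factor 1 (DN1720_c0_g2, log2 fold change 0.88). The rises of glutamate dehydrogenase A and the amidase were lost without exponential replicate 1, exponential replicate 3, stationary replicate 2 or stationary replicate 3 (adjusted p 0.0312 to 0.098 and 0.0256 to 0.1). Nitrate reductase (DN580_c1_g1), the first step from nitrate, stood at 219, 306 and 454 CPM in the exponential and 669, 854 and 622 CPM in the stationary libraries. The groups did not overlap, yet it was not called (log2 fold change 1.13 ± 0.29, adjusted p = 0.064).

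Phosphate and sulfur metabolism, a list of transporters, phosphatases, sensors and enzymes, gave 12 rises and 2 falls among 38 tested genes (72 matched), although the median was -0.10; leaving out 1 library lowered this to as few as 5 higher (stationary replicate 1) and 1 lower (exponential replicate 2). The list summed to 3015, 3388 and 2919 CPM in the exponential and 5078, 5884 and 5768 CPM in the stationary libraries. Stationary libraries were all higher, 1.79 times on average. Cysteine synthase, which joins sulfide to an acceptor made from serine, rose in 2 copies but not in others. DN2172_c0_g1 (log2 fold change -0.67, adjusted p = 0.0557), DN2991_c0_g1 (-0.59) and DN150_c0_g1 (-0.03), named after their values were seen, were not called. DN298_c0_g2 stood at 188, 227 and 191 CPM in the exponential and 861, 1099 and 1095 CPM in the stationary libraries, without overlap (log2 fold change 2.33 ± 0.16, adjusted p = 0.00111). DN150_c0_g2 rose from 83.3 ± 11.4 to 541 ± 89.5 CPM (log2 fold change 2.70 ± 0.18, adjusted p = 0.00111), but its component by 0.75. An SPX domain protein (DN2825_c0_g1), of a family that senses phosphate status in plants, stood at 331, 568 and 428 CPM in the exponential and 1084, 902 and 1104 CPM in the stationary libraries. It was higher in all stationary libraries (log2 fold change 1.22 ± 0.22, adjusted p = 0.0222), a call kept without exponential replicate 2 and lost without each of the other 5 (adjusted p 0.0266 to 0.113). Among the rises 1 was a transporter, named sodium-dependent phosphate transporter 2 (DN979_c0_g1) (log2 fold change 1.12, adjusted p = 0.0359), and a pair were enzymes of sulfolipid synthesis, UDP-sulfoquinovose synthase (DN3753_c0_g1) (log2 fold change 2.40, adjusted p = 0.00149) and SQD2 (DN5167_c0_g1) (log2 fold change 1.55, adjusted p = 0.0115). Both falls were enzymes of sulfate activation, adenylyl-sulfate kinase (DN2632_c0_g1) (log2 fold change -1.39, adjusted p = 0.00148) and sulfate adenylyltransferase (DN114_c0_g4) (log2 fold change -1.44, adjusted p = 0.0205), while a second adenylyl-sulfate kinase (DN1062_c0_g5) rose (log2 fold change 3.40, adjusted p = 0.0476). These 6 were chosen after their values were seen. With 1 library left out, the call for the transporter was lost in all 6 fits (adjusted p 0.0505 to 0.136) and that for SQD2 without stationary replicate 3 (adjusted p 0.0171 to 0.0672). The fall of sulfate adenylyltransferase was kept only without exponential replicate 3 or stationary replicate 3 (adjusted p 0.0273 to 0.0902) and was not called over its component (-0.35). The rise of DN1062_c0_g5 was kept only without exponential replicate 2 (adjusted p 0.00878 to 0.175) and came to 0.76 over its component.

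Proteasome genes moved one way where they were called: 8 of 40 tested genes (96 matched) rose and none fell in edgeR (2 at an unadjusted p under 0.05, 1 called in DESeq2), with a median of 0.34. The summed level was 3354, 3421 and 3266 CPM in the exponential and 4624, 3918 and 4496 CPM in the stationary libraries, higher in each stationary library. Here the call count hung on scaling and on single libraries, with 15 rises under the authors' scaling, 20 by library totals and 1 without stationary replicate 3. Non-ATPase subunit 1 (DN2854_c0_g1) stood at 144, 159 and 138 CPM in the exponential and 254, 258 and 253 CPM in the stationary libraries, apart by group (log2 fold change 0.80 ± 0.10, adjusted p = 0.00706). The ATPase subunit 10B (DN491_c1_g2) rose from 207 ± 12.2 to 365 ± 33.3 CPM (log2 fold change 0.82 ± 0.12, adjusted p = 0.00978); with 1 library left out its adjusted p ran from 0.0208 to 0.0609, highest without stationary replicate 3. Subunit 6B (DN3483_c0_g3) went from 242 ± 20.9 to 315 ± 23.8 CPM and was not called (log2 fold change 0.38 ± 0.12, adjusted p = 0.123). In autophagy and vacuolar proteolysis 14 of 68 tested genes (143 matched) rose and 4 fell (median 0.20); leaving out 1 library lowered this to as few as 4 higher (stationary replicate 2) and 2 lower (exponential replicate 1). Serine carboxypeptidase-like 25 (DN538_c0_g1) stood at 24.3, 32 and 35.4 CPM in the exponential and 152, 212 and 196 CPM in the stationary libraries. All stationary libraries were higher (log2 fold change 2.61 ± 0.20, adjusted p = 0.00148). Subunit d of the V-type proton pump (DN1691_c0_g1) fell from 953 ± 73.1 to 83.3 ± 21.7 CPM (log2 fold change -3.52 ± 0.23, adjusted p = 0.00107), while subunit C of the same pump (DN1530_c0_g1) and VPS52 (DN260_c0_g1), a tether of vesicle traffic, were not called (adjusted p = 0.448 and 0.301).

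Antioxidant and thiol redox enzymes split, with 7 of 65 tested genes (112 matched) higher and 9 lower (median -0.31); leaving out 1 library lowered this to as few as 2 higher (stationary replicate 3) and 4 lower (exponential replicate 2). The smallest p belonged to glutathione peroxidase 2 (DN33_c1_g1), which reduces hydrogen peroxide and lipid peroxides. It stood at 5768, 6279 and 5433 CPM in the exponential and 25.4, 19.8 and 19.1 CPM in the stationary libraries. It was high in every exponential library and low in every stationary one (log2 fold change -8.08 ± 0.26, adjusted p = 0.000412). Ferredoxin-thioredoxin reductase (DN3845_c0_g1), which passes the redox state of photosynthesis to plastid enzymes, fell from 47.9 ± 8.75 to 9.61 ± 1.31 CPM (log2 fold change -2.32 ± 0.21, adjusted p = 0.00216). Catalase 2 (DN1464_c0_g1) stood at 257, 309 and 186 CPM in the exponential and 479.7, 466 and 392 CPM in the stationary libraries, higher in all stationary libraries but not called (log2 fold change 0.83 ± 0.21, adjusted p = 0.0589). Under the authors' scaling 12 of the list rose and 6 fell.

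In DNA replication, the share called higher was 5.41%, beside 4.94% of all tested genes and 9.77% of those with a product name. Of 37 tested genes (70 matched) for replication 2 rose and none fell in edgeR (1 at an unadjusted p under 0.05, 0 called in DESeq2), with a median of -0.09; leaving out 1 library lowered this to as few as 1 higher (exponential replicate 3). Of 83 tested genes (190 matched) for mitosis and the cell cycle 4 rose (4.82%) and 7 fell (8.43%), with a median of -0.28. Of all tested genes 4.87% fell, and of those with a product name 9.77% rose and 13.1% fell. Leaving out 1 library lowered the counts of this second list to as few as 2 higher (exponential replicate 1) and 4 lower (exponential replicate 2). Under the authors' scaling 10 of the second list rose and 7 fell. Subunit C of replication protein A (DN754_c0_g1), which coats single-stranded DNA, stood at 59.98, 83.2 and 81.7 CPM in the exponential and 185, 189 and 208 CPM in the stationary libraries, higher in all stationary libraries (log2 fold change 1.37 ± 0.16, adjusted p = 0.00467). Replication factor C subunit 5 (DN1091_c0_g1), of the clamp loader, rose from 94.6 ± 14.9 to 154 ± 1.52 CPM (log2 fold change 0.70 ± 0.14, adjusted p = 0.0294), a call lost without exponential replicate 3 or any of the stationary replicates (adjusted p 0.0484 to 0.13). Ribonucleotide reductase (DN23_c2_g1) and DNA polymerase epsilon subunit B (DN1279_c0_g1) overlapped between groups (adjusted p = 0.44 and 0.733). A homolog of cell division control protein 2 (DN396_c0_g1), the kinase that drives cells into mitosis, stood at 849, 786 and 638 CPM in the exponential and 766, 805 and 741 CPM in the stationary libraries. Its groups overlapped, with a log2 fold change of 0.02 ± 0.15. Another gene of the same name (DN1149_c0_g1) rose from 5.08 ± 1.88 to 105 ± 17.6 CPM (log2 fold change 4.37 ± 0.31, adjusted p = 0.00116), or 1.56 over its component. The Nek4 kinase (DN51_c4_g3) fell from 244 ± 32.4 to 62.5 ± 2.75 CPM (log2 fold change -1.96 ± 0.13, adjusted p = 0.0011), and CDC48 (DN360_c1_g2), an unfoldase, was not called (log2 fold change 0.24 ± 0.14, adjusted p = 0.31).

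Flagellar, dynein and tubulin genes were assembled although Chlorella cells are not known to swim. Of 373 genes matched, 44 were tested, of which 10 rose and 2 fell (median 0.25); leaving out 1 library lowered this to as few as 4 higher (exponential replicate 1) and 0 lower (stationary replicate 1). Axonemal dynein light chain 4 (DN2514_c0_g1) stood at 3.88, 2.64 and 3.68 CPM in the exponential and 49.6, 67 and 30.9 CPM in the stationary libraries, higher in all stationary libraries (log2 fold change 3.85 ± 0.36, adjusted p = 0.00237). Tubulin polyglutamylase ttll6 (DN106_c0_g1) rose from 11.2 ± 1.55 to 48.7 ± 1.66 CPM (log2 fold change 2.12 ± 0.17, adjusted p = 0.00149), or 1.09 over its component. Alpha-2 tubulin (DN517_c0_g1) and beta tubulin (DN3237_c0_g1), which also form the spindle, rose by 0.69 and 0.91 on the log2 scale, calls kept only without stationary replicate 2 among the fits with 1 library left out (adjusted p 0.0383 to 0.131 and 0.0185 to 0.0841). The 329 genes of the list that the rule left out summed to 86, 117 and 237 CPM in the exponential and 1033, 742 and 311 CPM in the stationary libraries. They too were higher in each stationary library. The tested genes of the list summed to 1665, 1623 and 1698 CPM in the exponential and 2329.9, 2373 and 2279.9 CPM in the stationary libraries, and in salt, where the rule required counts, to 2464 ± 41.7 and 2279 ± 9.05 CPM in the exponential and stationary phases. Whether flagellar and dynein transcripts came from Chlorella or from another organism in the cultures was not tested.

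Cell wall and glycan genes had 8 higher and 5 lower of 45 tested genes (79 matched, median 0.30); leaving out 1 library lowered this to as few as 2 higher (exponential replicate 2) and 1 lower (stationary replicate 3). Endoglucanase E-4 (DN575_c0_g2), named after an enzyme that cuts cellulose, stood at 29, 16.6 and 22.6 CPM in the exponential and 533, 489 and 438 CPM in the stationary libraries. The stationary libraries were all far higher (log2 fold change 4.42 ± 0.25, adjusted p = 0.000842), with 2.50 over its component. Mannan endo-beta-mannosidase 1 (DN332_c0_g1) rose from 234 ± 46.5 to 442 ± 26.3 CPM (log2 fold change 0.92 ± 0.17, adjusted p = 0.024), a call kept without exponential replicate 1 and lost without each of the other 5 libraries (adjusted p 0.0279 to 0.108). The glucuronosyltransferase F8H (DN737_c3_g1) rose from 117 ± 13.5 to 223 ± 16.9 CPM (log2 fold change 0.93 ± 0.13, adjusted p = 0.0089), a call not made for its component (0.62). N-acetylglucosamine-6-O-sulfatase (DN3291_c0_g1) stood at 238, 176 and 1169 CPM in the exponential and 21.1, 19.4 and 99.2 CPM in the stationary libraries. The groups did not overlap and replicate 3 was the highest in each phase, but the gene was not called (log2 fold change -3.50 ± 1.04, adjusted p = 0.104).

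The list of transcription factors held calls in both directions, 5 higher and 6 lower of 62 tested genes (94 matched, median 0.03). Leaving out 1 library lowered this to as few as 3 higher (stationary replicate 1) and 1 lower (stationary replicate 1). Under the authors' scaling 7 rose and 1 fell. The list also took in names of other kinds, such as thioredoxin reductase tcpT (DN6857_c0_g1). Among the 5 rises, BRAP2 RING ZnF UBP domain-containing protein 2 (DN477_c1_g1, log2 fold change 1.94) bears no transcription factor name. Both were named after their values were seen. A homolog of BOA (DN828_c0_g1), in Arabidopsis a factor of the circadian clock, stood at 25.7, 30.1 and 24.1 CPM in the exponential and 142, 149 and 125 CPM in the stationary libraries. All stationary libraries were higher (log2 fold change 2.38 ± 0.14, adjusted p = 0.000986). The CCCH zinc finger protein 2 (DN176_c0_g2) rose from 76.5 ± 2.30 to 326 ± 44.4 CPM (log2 fold change 2.09 ± 0.13, adjusted p = 0.001), or 1.49 over its component. Basic transcription factor 3 (DN1999_c0_g1) fell from 785 ± 134 to 443 ± 18.1 CPM (log2 fold change -0.83 ± 0.16, adjusted p = 0.024), lost by library totals, under the authors' scaling, and without exponential replicate 2 or any stationary replicate (adjusted p 0.0234 to 0.0931). Myb-related protein 2 (DN70_c1_g2) overlapped between groups (log2 fold change 0.21 ± 0.23, adjusted p = 0.584).

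Beyond the antenna pair, the endoglucanase and the second cell division kinase, the 10 largest rises included a copper-transporting ATPase and enzymes of amino acid and folate metabolism. RAN1 (DN51_c2_g1), which loads copper into secretory compartments in Arabidopsis, rose from 6.19 ± 1.02 to 86.6 ± 35.4 CPM (log2 fold change 3.80 ± 0.34, adjusted p = 0.0021), or 2.64 over its component. Dihydrodipicolinate reductase 1 (DN152_c0_g1), of lysine synthesis, stood at 20.7, 24.1 and 18.4 CPM in the exponential and 202, 187 and 447 CPM in the stationary libraries. Stationary replicate 3 was the highest of 3 that all exceeded the exponential libraries (log2 fold change 3.72 ± 0.40, adjusted p = 0.00368). Methylenetetrahydrofolate reductase (DN5502_c0_g1), which makes the methyl donor for methionine, stood at 23.3, 47 and 46.2 CPM in the exponential and 358, 364 and 325 CPM in the stationary libraries. The groups were well apart (log2 fold change 3.17 ± 0.29, adjusted p = 0.00232). DUG1 (DN1150_c1_g1), in yeast a peptidase of glutathione breakdown, rose from 20.2 ± 0.804 to 168 ± 53.4 CPM (log2 fold change 3.06 ± 0.24, adjusted p = 0.0015). Glycosyltransferase BC10 (DN240_c0_g2) rose from 7.54 ± 3.64 to 83.2 ± 20.2 CPM (log2 fold change 3.46 ± 0.41, adjusted p = 0.0051). A gene named after the resistance protein TAO1 (DN2510_c0_g2) rose from 4.14 ± 0.429 to 39.6 ± 22.4 CPM (log2 fold change 3.25 ± 0.53, adjusted p = 0.0149), a call kept only without stationary replicate 2 among the fits with 1 library left out (adjusted p 0.00694 to 0.0767). Adenosylhomocysteinase (DN98_c0_g1), of the methyl cycle and 1 of the 5 named genes with the highest CPM, stood at 7439.8, 10608 and 12728 CPM in the exponential and 8253, 7198 and 8817 CPM in the stationary libraries, with overlapping groups (log2 fold change -0.34 ± 0.30, adjusted p = 0.461).

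**Figure D4:**
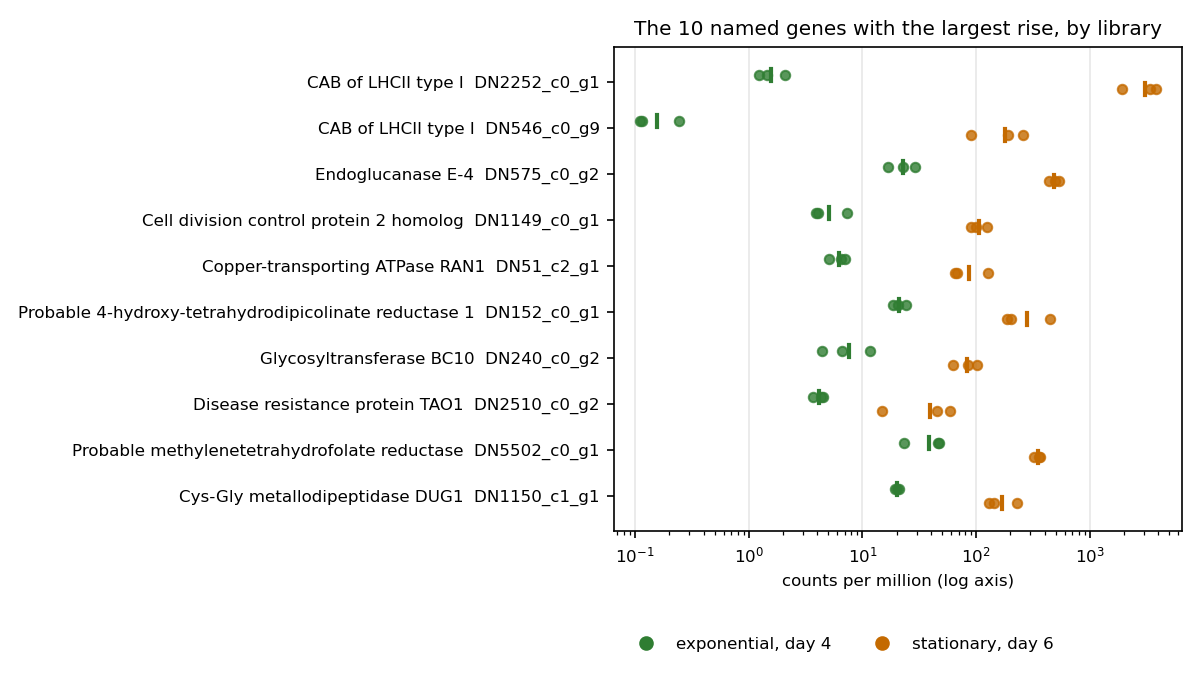
The 10 largest rises among named genes that passed the test, whose mean log2 CPM was 4 or more and whose groups do not overlap, in CPM on a log axis; 1 point per freshwater library and a vertical mark at each group's mean. Stationary libraries (orange) lie above exponential libraries (green) in all 10.

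In salt the antenna and photosystem medians were above 0 between the same phases, not below it. The difference of the phase changes, freshwater minus marine, was tested in a fit of all 12 libraries and called for 2435 genes (10.4%), 1594 above 0 (6.83%) and 841 below 0 (3.6%). With RLE size factors in place of TMM the split was 1222 to 1013. Library codes share a stem within the marine exponential group and between marine stationary replicates 1 and 2. These marine libraries lay closer together than freshwater replicates. Whether they came from separate cultures was not tested, so the p-values of the difference may rest on too small a spread. Of the 24 antenna genes, 19 differed downward in freshwater and 2 upward, the marine median change being 0.54. The marine level of the antenna list was 2826 ± 210.4 CPM in exponential and 4079.5 ± 1115 CPM in stationary phase, on a scale fitted to all 12 libraries. Neither marine phase came near the freshwater exponential level. For photosystems 26 genes differed downward and none upward in edgeR (0 at an unadjusted p under 0.05, 0 called in DESeq2), for the Calvin cycle 9 downward and 1 upward, and for organelle ribosomes 25 and 1. The tricarboxylic acid cycle gave 12 downward and 3 upward, but citrate synthase did not differ beyond the spread: its marine log2 fold change was -1.25 and the difference -0.11 ± 0.27 (adjusted p = 0.902).

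Differences were called for 8 upward and 2 downward of 15 genes of starch degradation, 8 upward and 2 downward of 38 for phosphate and sulfur, 18 upward and 2 downward of 68 for autophagy and 32 upward and 4 downward of 126 for the ubiquitin system. For flagella 11 of 44 differed upward and none downward in edgeR (3 at an unadjusted p under 0.05, 2 called in DESeq2). Glutathione peroxidase 2 went from 5827 ± 426 to 21.5 ± 3.45 CPM in freshwater but from 32.8 ± 0.695 to 128 ± 7.62 CPM in salt, a difference of -9.97 ± 0.25 (adjusted p = 2.43e-08). The Rubisco small subunit stood at 821 ± 31.2 and 1575 ± 163 CPM in the marine phases, a difference of -4.53 ± 0.26 (adjusted p = 5.58e-06). Alternative oxidase rose in freshwater against a marine change of -0.95, a difference of 1.91 ± 0.17 (adjusted p = 9.89e-05). Without marine exponential replicate 1 or 2, or marine stationary replicate 1 or 2, between 1003 and 1008 genes were called above 0. Without marine stationary replicate 3, whose code has its own stem, the calls increased to 1980 above and 1327 below 0.

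**Figure D5:**
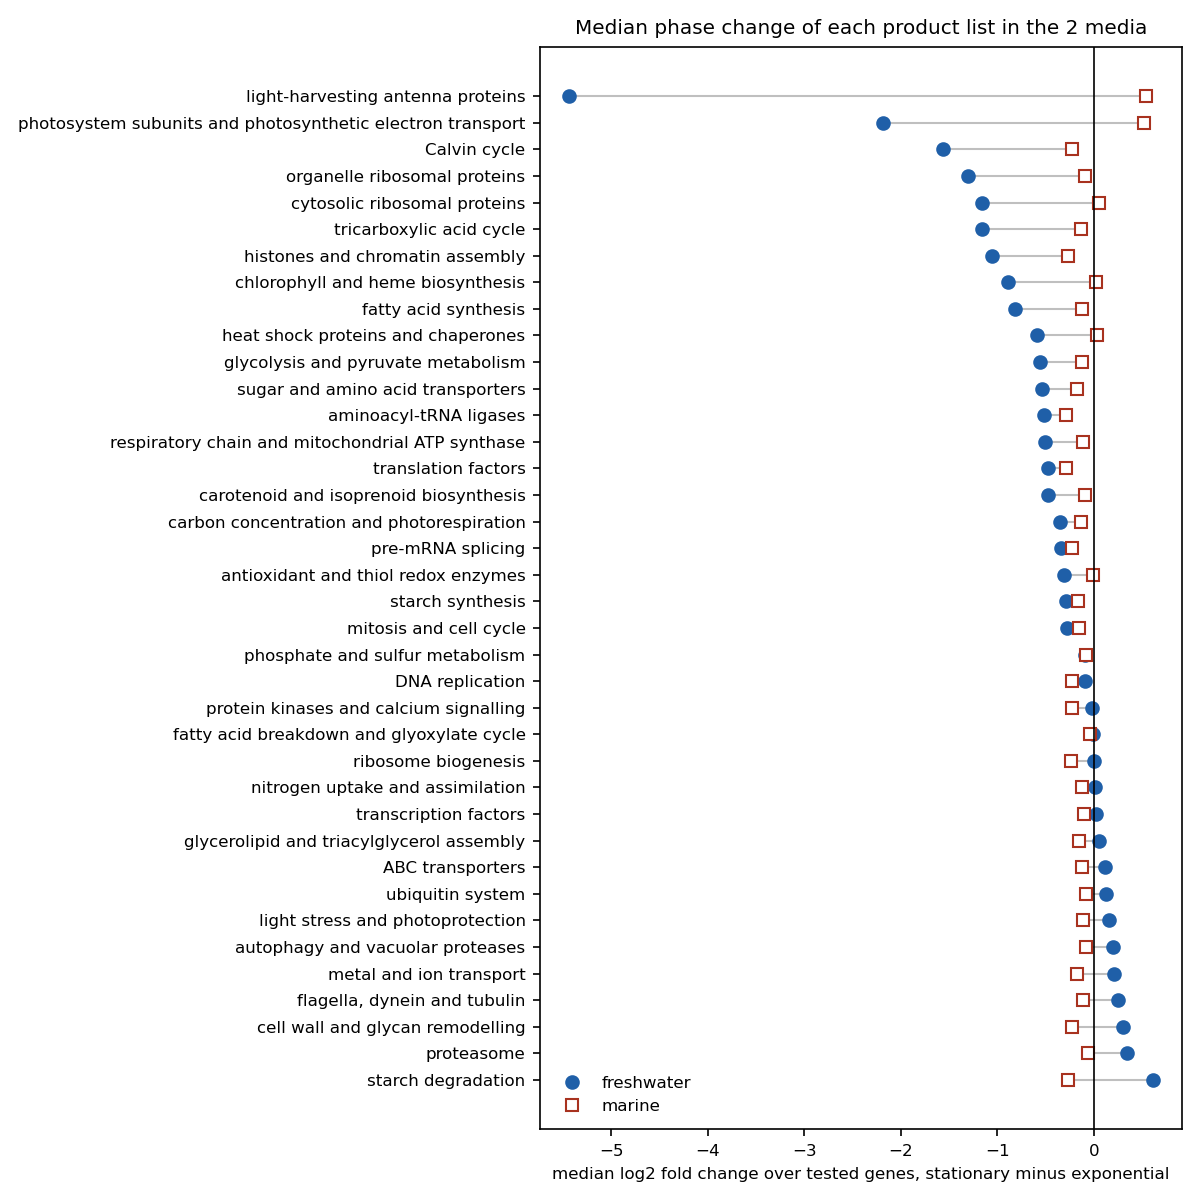
Median log2 fold change from exponential to stationary phase of the tested genes in each product list, in freshwater (filled circles) and in marine medium (open squares), joined by a line; lists with 15 or more tested genes. The lines are longest for antennas and photosystems, where the freshwater median is below 0 and the marine median above 0.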

How the data were processed

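Poly(A)-selected RNA was sequenced in 12 libraries, per the labels' protocols. The kit does not mark strand, so overlapping and antisense genes cannot be told apart. The authors deposited RSEM 1.3.2 expected counts per gene of a Trinity assembly, aligned with Bowtie per the submitters' processing notes and not normalised. The deposited comparison table gives each group's mean signal after SVCD, used only for an alternative scaling. The deposited annotation table gives other values, sequence length and the E-value of the best hit; 0 columns of per-sample values went unused.

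Expected counts were rounded and scaled by TMM. Stationary was tested against exponential phase in 6 libraries, and the difference between media in 12, with edgeR 4.0.16 (quasi-likelihood F-test, R 4.3.3) and Benjamini-Hochberg adjustment, called at an FDR under 0.05. DESeq2 1.42.0 was an alternative; an adjusted p it gave as NA stayed NA. Fits were tested on simulated counts. With 3 against 3 no exact permutation p falls below 0.1. Tables and figures used Python 3.11.15 and matplotlib 3.10.9.

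The members and the lists (patterns over product names) were chosen with earlier results of these data known. False matches were struck out by product name after the annotation table was seen, but some remained. Named genes were, per list with at least 5 tested genes, the 2 of highest mean CPM and the 2 called with the smallest p at a mean log2 CPM of at least 3, plus the 10 highest and 10 lowest fold changes among called genes at a mean log2 CPM of at least 4, an E-value of at most 1e-20 and no overlap, and the 5 named genes of highest mean CPM. Pathway counts planned from deposited pathway sheets are not given, since those sheets were not used here. Same-numbered libraries did not deviate together (correlations in the closing section).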

Additional observations from a re-analysis of the deposited data

Results flagged for a closer look

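The named genes below were marked because their phase change in freshwater differed from that in marine medium in the test of the difference itself, at an adjusted p under 0.05 in edgeR over all 23351 genes. Values are the freshwater minus the marine change on the log2 scale, so that below 0 the freshwater change was the lower. They are 98 of 131 named genes that were checked, and CAB stands for chlorophyll a-b binding protein. Some genes named only for contrast or for their component were not among the 131. The limit on the marine spread given above holds for these calls too. Antenna genes differed by -9.36 for CAB 3 (DN2252_c0_g2), -10.17 for CAB 215 (DN10362_c0_g1), -6.11 for CAB 4 (DN1819_c0_g6), -6.93 for CAB 6A (DN1819_c0_g1) and -11.30 for CAB of LHCII type I (DN546_c0_g2). Others of this group differed by -8.81 for CAB (DN1819_c0_g2), -8.52 for CAB of LHCII type I (DN546_c0_g10), -9.82 for CAB type 2 member 1A (DN2252_c0_g4), -7.89 for CAB of LHCII type I (DN10362_c0_g2) and -7.74 for CAB CP26 (DN2947_c0_g1). Above 0 stood 11.98 for CAB of LHCII type I (DN2252_c0_g1) and 10.34 for CAB of LHCII type I (DN546_c0_g9). Photosystem and electron transport genes differed by -6.89 for Ferredoxin (DN3638_c0_g2), -3.11 for Photosystem II protein PSBR (DN2727_c0_g1), -5.33 for Photosystem I reaction center subunit psaK (DN6430_c0_g1), -5.05 for Photosystem I reaction center subunit II (DN3598_c0_g1) and -4.54 for Photosystem I reaction center subunit IV (DN4375_c0_g1). Calvin cycle and photorespiration genes differed by -4.53 for Ribulose bisphosphate carboxylase small chain 1 (DN1599_c0_g1), -4.76 for Phosphoribulokinase (DN55859_c0_g1), -3.30 for Fructose-bisphosphate aldolase 1 (DN2275_c0_g1), -1.02 for Glyoxylate/hydroxypyruvate reductase A (DN59_c0_g1) and -1.47 for Serine hydroxymethyltransferase 4 (DN3119_c0_g1). Pigment and photoprotection genes differed by -2.67 for Glutamyl-tRNA reductase 1 (DN296_c0_g2), -3.07 for Magnesium-chelatase subunit ChlD (DN458_c0_g2), -1.41 for Zeta-carotene desaturase (DN9_c0_g2), -2.13 for Carotene epsilon-monooxygenase (DN19_c0_g1) and -1.44 for ATP-dependent zinc metalloprotease FTSH (DN1636_c0_g1). Others of this group differed by -0.86 for ATP-dependent zinc metalloprotease FTSH 4 (DN448_c0_g3). Above 0 stood 1.72 for Zeaxanthin epoxidase (DN1658_c0_g1). Translation genes differed by -1.36 for 50S ribosomal protein L10 (DN1238_c0_g1), -1.70 for 50S ribosomal protein L3-1 (DN6489_c0_g2), -1.72 for 30S ribosomal protein S15 (DN10671_c0_g2), -1.94 for Eukaryotic translation initiation factor 2 subunit alpha homolog (DN2440_c0_g2) and -1.52 for Elongation factor G-2 (DN1578_c0_g1). Others of this group differed by -1.98 for Leucine--tRNA ligase (DN1140_c0_g1) and -2.05 for Serine--tRNA ligase (DN1523_c0_g1). Above 0 stood 1.18 for 50S ribosomal protein L27 (DN966_c0_g1). Genes of respiration and the tricarboxylic acid cycle differed by -1.59 for Aconitate hydratase (DN650_c1_g1), -1.98 for Malate dehydrogenase (DN1577_c0_g1), -2.65 for Succinate dehydrogenase (DN3299_c0_g2), -1.94 for Cytochrome c (DN4874_c0_g2) and -1.32 for Internal alternative NAD(P)H-ubiquinone oxidoreductase A1 (DN937_c0_g1). Above 0 stood 1.91 for Alternative oxidase (DN728_c0_g1) and 2.27 for External alternative NAD(P)H-ubiquinone oxidoreductase B1 (DN993_c0_g1). Genes of lipid metabolism and the glyoxylate cycle differed by -0.61 for Omega-6 fatty acid desaturase (DN236_c0_g1), -1.82 for 3-oxoacyl- (DN3474_c0_g1), -1.10 for Enoyl-[acyl-carrier-protein] reductase (DN7107_c0_g1), -0.99 for Isocitrate lyase (DN176_c1_g1) and -1.48 for Malate synthase (DN1209_c0_g1). Others of this group differed by -1.16 for Acyl carrier protein 2 (DN4208_c0_g1). Above 0 stood 1.06 for Choline-phosphate cytidylyl transferase 1 (DN213_c0_g1) and 1.5 for Very-long-chain 3-oxoacyl-CoA reductase 1 (DN493_c0_g1). Sugar metabolism genes differed by -1.15 for Pyruvate kinase isozyme A (DN465_c0_g1), -2.53 for Phosphoglucomutase-2 (DN3380_c0_g1), -0.53 for branching enzyme 2-1 (DN21432_c0_g1) and -1.45 for alpha-glucosidase (DN404_c0_g1). Above 0 stood 3.74 for Triosephosphate isomerase (DN358_c0_g2), 1.5 for Glucose-1-phosphate adenylyltransferase small subunit (DN86_c0_g1), 1.71 for Alpha-glucan water dikinase (DN219_c0_g3), 1.34 for Alpha-amylase 3 (DN2089_c0_g1) and 1.12 for 6-phosphogluconolactonase 3 (DN1746_c1_g1). Above 0 stood 3.06 for Glucose-6-phosphate 1-dehydrogenase 2 (DN769_c0_g1). Nutrient and transport genes differed by -3.47 for NADP-specific glutamate dehydrogenase (DN2745_c0_g4) and -0.97 for Adenylyl-sulfate kinase (DN2632_c0_g1). Above 0 stood 2.67 for Nitrate reductase (DN580_c1_g1), 2.79 for Glutamate dehydrogenase A (DN224_c1_g1), 2.04 for N-carbamoylputrescine amidase (DN1720_c0_g1), 1.95 for SPX domain-containing protein 2 (DN2825_c0_g1) and 2.25 for Cysteine synthase (DN298_c0_g2). Above 0 stood 2.63 for Cysteine synthase (DN150_c0_g2), 3.12 for Copper-transporting ATPase RAN1 (DN51_c2_g1), 2.12 for UDP-sulfoquinovose synthase (DN3753_c0_g1) and 1.22 for Sulfoquinovosyl transferase SQD2 (DN5167_c0_g1). Proteolysis and redox genes differed by -3.90 for V-type proton ATPase subunit d (DN1691_c0_g1), -9.97 for glutathione peroxidase 2 (DN33_c1_g1) and -2.45 for Ferredoxin-thioredoxin reductase catalytic chain (DN3845_c0_g1). Above 0 stood 0.65 for 26S proteasome regulatory subunit 6B homolog (DN3483_c0_g3), 1.13 for 26S proteasome non-ATPase regulatory subunit 1 homolog B (DN2854_c0_g1), 2.50 for Serine carboxypeptidase-like 25 (DN538_c0_g1) and 1.14 for Catalase isozyme 2 (DN1464_c0_g1). Division, wall and flagellar genes differed by -1.38 for Serine/threonine-protein kinase Nek4 (DN51_c4_g3). Above 0 stood 2.26 for Tubulin polyglutamylase ttll6 (DN106_c0_g1), 3.86 for Dynein light chain 4 (DN2514_c0_g1), 4.90 for Endoglucanase E-4 (DN575_c0_g2), 1.56 for Mannan endo-mannosidase (DN332_c0_g1) and 1.15 for glucuronoxylan glucuronosyltransferase F8H (DN737_c3_g1). Above 0 stood 2.54 for Replication protein A 70 kDa DNA-binding subunit C (DN754_c0_g1), 0.82 for Replication factor C subunit 5 (DN1091_c0_g1) and 4.20 for Cell division control protein 2 homolog (DN1149_c0_g1). Transcription factors differed by -0.72 for Basic transcription factor 3 (DN1999_c0_g1). Above 0 stood 2.96 for Transcription factor BOA (DN828_c0_g1), 2.69 for Zinc finger CCCH domain-containing protein 2 (DN176_c0_g2) and 1.46 for Myb-related protein 2 (DN70_c1_g2). Other named genes differed by 3.89 for 4-hydroxy-tetrahydrodipicolinate reductase 1 (DN152_c0_g1), 4.16 for Glycosyltransferase BC10 (DN240_c0_g2), 4.51 for Disease resistance protein TAO1 (DN2510_c0_g2), 3.49 for methylenetetrahydrofolate reductase (DN5502_c0_g1) and 3.35 for Cys-Gly metallodipeptidase DUG1 (DN1150_c1_g1).

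The genes with counts in freshwater that the rule left out were marked because they carry reads that no comparison above uses. They held 8.82% of counts in stationary replicate 1; their scarcity in salt was set by the rule and is no finding. Their 4314 named hits held 770 human, 358 mouse, 309 Dictyostelium discoideum and 607 Arabidopsis thaliana proteins.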

How the results depend on the processing

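Calls depend on the number of genes tested and on the spread model. Against 1153 genes higher and 1138 lower, library totals gave 1908 higher. DESeq2 gave 2162 and 1888, filterByExpr on top of the rule 1895 and 1712, filterByExpr on freshwater alone 2588 and 1910, no filter 378 and 683, and the fit of all 12 libraries 2018 higher. With 1 library left out, 423 to 892 were higher and 612 to 926 lower. For the difference between media (1594 above and 841 below 0) DESeq2 gave 2540 and 2366, and leaving 1 library out 1003 to 1980 above and 621 to 1327 below. Same-numbered libraries had deviation correlations of -0.022, -0.035 and 0.023 and so share only a number; with the replicate block 424 were higher and 576 lower, and 1035 above and 466 below 0 for the difference; only some libraries correlated best with their own number. Summed over components, DN2252_c0_g1 came to -4.14, DN546_c0_g9 to -3.40 and DN1285_c0_g3 to -0.35. Genes that were not called changed sign: DN485_c0_g1 without the filter (-0.0023), DN1530_c0_g1 by totals (0.049), DN1279_c0_g1 by totals (0.18), the authors' scaling (0.10) and without stationary replicate 3 (0.0062; range from -0.29 with 1 library left out), DN396_c0_g1 without the filter (-0.17), with filterByExpr on freshwater (-0.13) and without exponential replicate 3 (-0.10) or stationary replicate 2 (-0.0077; up to 0.093 with 1 left out), and DN70_c1_g2 without exponential replicate 1 (-0.013; up to 0.36). Of the checks of named genes under the other settings, 1198 kept direction and call, 63 lost it and 40 gained one; with 1 library left out 672 kept and 109 lost it. The cause was not tested. Depth limits genes of a few counts, where a change is not detectable.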

Other observations

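Other product lists held calls in both directions, beside 4.94% of all tested genes that rose and 4.87% that fell. Of genes with a product name, from which the lists were drawn, 9.77% rose and 13.1% fell. In the ubiquitin system, which marks proteins for the proteasome, 21 rose and 9 fell of 126 tested (271 matched, median 0.12); leaving out 1 library lowered this to as few as 8 higher (stationary replicate 3) and 2 lower (stationary replicate 3). Among heat shock proteins and chaperones 10 rose and 18 fell of 110 tested (239 matched, median -0.59); leaving out 1 library lowered this to as few as 6 higher (exponential replicate 2) and 10 lower (stationary replicate 1). For metal and ion transport 12 rose and 6 fell of 79 tested (156 matched, median 0.21); leaving out 1 library lowered this to as few as 5 higher (stationary replicate 1) and 0 lower (exponential replicate 1). For ABC transporters 7 rose and 5 fell of 54 tested (106 matched, median 0.11); leaving out 1 library lowered this to as few as 4 higher (stationary replicate 1) and 2 lower (exponential replicate 1). For sugar and amino acid transporters 3 rose and 4 fell of 21 tested (24 matched, median -0.53); leaving out 1 library lowered this to as few as 0 higher (exponential replicate 2) and 2 lower (stationary replicate 3). Ribosome biogenesis gave 7 rises and 2 falls of 57 (128 matched); leaving out 1 library lowered this to as few as 1 higher (exponential replicate 2) and 0 lower (exponential replicate 1). In pre-mRNA splicing 2 rose and 10 fell of 66 tested (169 matched, median -0.34); leaving out 1 library lowered this to as few as 1 lower (stationary replicate 1). Protein kinases and calcium signalling held the most genes, and 24 rose and 19 fell of 227 tested (468 matched, median -0.02); leaving out 1 library lowered this to as few as 12 higher (stationary replicate 1) and 9 lower (stationary replicate 2). Of 15 histone and chromatin assembly genes tested (29 matched), 1 fell and none rose in edgeR (2 at an unadjusted p under 0.05, 1 called in DESeq2), with a median of -1.05, a call lost in each fit with 1 library left out. The lowest log2 fold change, -8.97 for histone H1.3 (DN32527_c0_g1), came from a gene with 0 CPM in each stationary library. Members with counts in all 6 freshwater libraries ran from -1.72 (histone H2A, DN4566_c0_g1) to 1.26 (histone H2B.11, DN282_c0_g1).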
